A study of Mus musculus with 12 samples.

Results

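The genes described here are the nuclear-encoded subunits of oxidative phosphorylation, the 5 protein complexes of the inner mitochondrial membrane that oxidise electron carriers and make ATP. Members were chosen by gene symbol alone: names of the Nduf, Sdh, Uqcr, Cox4 to Cox8 and Atp5 series that were listed in the tables of both sorted populations. Pseudogene symbols and the 3 striated muscle isoforms Cox6a2, Cox7a1 and Cox8b were left out. The rule found 79 genes among 17952 gene identifiers, of which 39 belong to complex I, 4 to complex II, 8 to complex III, 11 to complex IV and 17 to complex V. All 79 were listed in every library's columns and all 79 passed the low-count filter in each comparison. They lie on 19 chromosomes, with at most 6 on any one, so they share no locus. Cox4i1, Ndufab1, Cyc1 and Cycs also belong to the respiratory chain, but their symbols fall outside the rule and their values are given separately.

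RNA was sequenced in bulk from cells of infarcted mouse hearts, in 4 groups of 3 libraries. All groups carried the p16-2A-CreER allele, a Cre recombinase made wherever p16 is expressed and active only with tamoxifen, with the R26-mTmG reporter, which turns a cell green once Cre has acted. All mice had a myocardial infarction, tamoxifen by gavage on day 5 and harvest on day 7, when the infarct zone was dissociated and cardiomyocytes were removed. Cells with high PDGFRα, a surface receptor of fibroblasts, or high F4/80, a macrophage surface protein, were each sorted into high and low green fluorescence, called P16hi and P16lo below. Green marks cells in which the p16 locus was active around the tamoxifen dose, so later or earlier activity need not be marked. The labels give no strain background, age or sex. They do not state that the 3 libraries of a group are 3 animals, and the spread that p-values rest on may therefore be technical.

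Oxidative phosphorylation passes electrons from NADH through complex I, or from succinate through complex II, to ubiquinone, on through complex III and cytochrome c to complex IV, which reduces oxygen. Complexes I, III and IV pump protons, and complex V, the ATP synthase, uses the returning protons to make ATP. Subunits are encoded partly by mitochondrial DNA and mostly by nuclear genes, many of which share promoter motifs for the factors NRF-1 and GABP. Heart muscle cells carry far more mitochondria than most other cells, and 3 complex IV subunits have separate forms in striated muscle and in other tissues.

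Several libraries stood apart from their group or their label. Total counts ran from 3.16 to 10.2 M (M, 1000000 counts) in PDGFRα P16hi, 13.5 to 18.9 M in PDGFRα P16lo and 15.5 to 27.9 M in the F4/80 groups. Each population's table holds its libraries in 2 blocks of columns, of unstated meaning. Hemoglobin genes took 0.588%, 18.7% and 44.8% of the counts in PDGFRα P16lo libraries 1, 2 and 3, against 0.244%, 4.62% and 2.50% in P16hi, and at most 0.363% in any F4/80 library. In the PDGFRα sorts the summed level of 12 fibroblast markers was 1104, 3503 and 29240 CPM (counts per 1000000 of the scaled library) in P16lo and 5125, 2470 and 9218 CPM in P16hi. The 12 macrophage markers together had 28416, 6468 and 1817 CPM in P16lo against 17014, 12860 and 5862 CPM in P16hi, above the fibroblast markers in 4 of the 6 libraries. PDGFRα P16lo library 2 held 1408 CPM of T and NK cell markers and 2073 CPM of neutrophil markers, where the other 5 PDGFRα libraries held 27.2 to 235 and 50.3 to 204 CPM. Among the F4/80 libraries, macrophage markers came to 2672 CPM in P16lo library 3 and to between 15260 and 53126 CPM in the other 5, and P16hi library 3 held 6394 CPM of endothelial markers, where the other 5 held 72.4 to 155 CPM. Sums of different lists are not shares of cells.

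In PDGFRα-high cells the 79 subunit genes were higher in P16hi than in P16lo libraries on average, by a median log2 fold change of 0.60, while the median of all 13262 genes tested was -0.17. The change was above 0 for 75 of the 79 members, against 40.4% of all genes tested. No single member passed the test: edgeR's quasi-likelihood test with Benjamini-Hochberg adjustment called 0 of 79, the smallest member adjusted p was 0.596, and the call rate over all genes was 0%. At an unadjusted p under 0.05, 6 members were higher and 0 lower, where 4.8% and 1.67% of all genes were. DESeq2 called 293 genes higher (2.21%) and 11 lower (0.0829%), and limma on log2(deposited TPM + 1) called 219 higher (1.65%) and 0 lower, and 0 members were among them.

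Summed over the 79 genes, the level was 13635, 16277 and 12734 CPM in PDGFRα P16lo against 28773, 20142 and 13527 CPM in P16hi libraries 1, 2 and 3. P16hi libraries 1 and 2 lay above all P16lo libraries, and P16hi library 3 lay below P16lo libraries 1 and 2, so the groups overlapped. The means were 14215 ± 1841 and 20814 ± 7645 CPM (SD, n = 3). The group means of the log2 sums differed by 0.49, with a within-group SD of 0.41. In bulk RNA, more cells with a high content and more RNA per cell cannot be told apart.

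P16hi library 1, the shallowest of the 12 and the only one of its column block, carried much of the difference. Without it the member median was 0.32 and the all-gene median -0.14, and 65 of 79 members were above 0. Without P16hi library 3 the member median was 0.83, and without any one P16lo library it was 0.51 to 0.72. The block of P16hi library 1 holds no other PDGFRα library, so the block and that library cannot be told apart.

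The order of the 3 P16hi libraries was the same for markers of heart muscle cells. The 17 cardiomyocyte markers summed to 381, 323 and 447 CPM in PDGFRα P16lo against 10840, 6997 and 3079 CPM in P16hi libraries 1, 2 and 3. All 17 had every P16hi library above every P16lo library, where 7.92% of all genes did, and their log2 fold changes were 2.94 to 4.66. The contractile genes Myh6 and Tnnt2, which define cardiomyocytes, were at 10.8 to 14.9 and 42.1 to 82.2 CPM in P16lo, so neither was at 0 there. The 15 endothelial markers were also higher, at 1465, 669 and 1303 CPM against 3196, 3586 and 5140 CPM, in another order of libraries. The order 1 above 2 above 3 was not particular to cardiomyocyte markers. Macrophage markers, which overlapped between the groups, had it too, at 17014, 12860 and 5862 CPM in P16hi. Total counts ran in the reverse order, at 3.16, 5.06 and 10.2 M. The part of these cell types or of depth in the subunit levels was not tested.

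**Figure D1:**
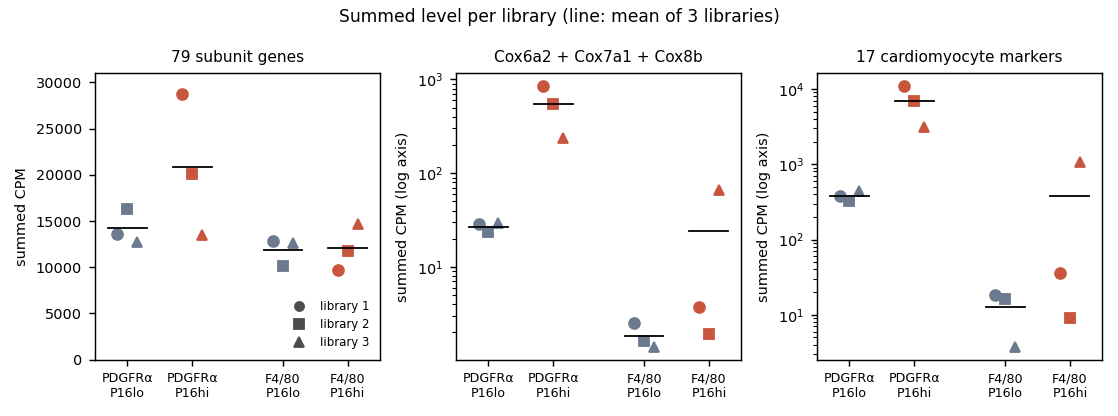
Summed CPM per library for the 79 subunit genes (linear axis from 0), the 3 muscle isoforms outside the rule and 17 cardiomyocyte markers (both log axes); each point is a library and each line the arithmetic mean of 3. In PDGFRα P16hi the same order of libraries, 1 above 2 above 3, holds in all 3 panels, and F4/80 P16hi library 3 stands above its group in the last 2.

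By complex, the median log2 fold changes in PDGFRα-high cells were 0.50 for complex I, 0.64 for complex II, 0.67 for complex III, 0.56 for complex IV and 0.60 for complex V. Every P16hi library lay above every P16lo library for 19 of 79 members, against 7.92% of all genes tested. These were 12 of complex I, 2 of complex II, 2 of complex III, 0 of complex IV and 3 of complex V. Complexes are assigned by symbol throughout, so Ndufa4, now usually counted with complex IV, is among the 12 of complex I. The opposite held for 1 member, Cox6b2, where 6.92% of all genes did so. The count of 19 depended on the scaling and on single libraries. It was 55 with library totals as the scale (17.2% of all genes), 33 with hemoglobin genes left out of those totals (9.62%), 36 without P16lo library 2 (10.6%) and 67 without P16hi library 3 (12.4%).

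**Figure D2:**
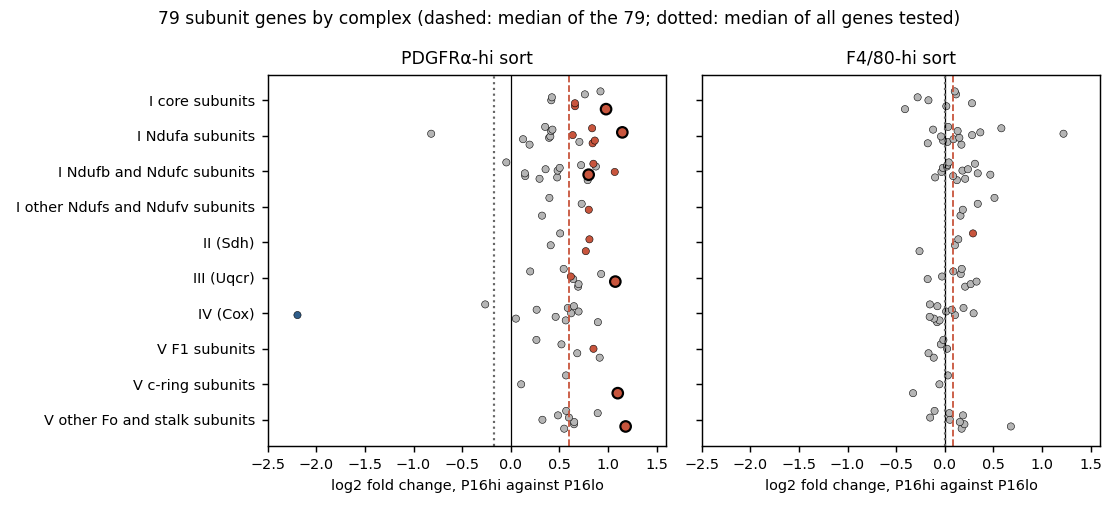
Log2 fold change of each subunit gene, P16hi against P16lo, by complex and class in the PDGFRα (left) and F4/80 (right) sorts, with 3 libraries a group. Red points have every P16hi library above every P16lo library, blue the reverse and grey overlap; large ringed points have an unadjusted edgeR p under 0.05. The 79 members centre on 0.60 in PDGFRα and 0.09 in F4/80 cells, and none passed the adjusted threshold.

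Complex I is the entry point for NADH, and its 7 core flavin and iron-sulfur subunits had log2 fold changes of 0.42 to 0.98. Ndufs1, the largest iron-sulfur subunit, was at 33.8, 37.8 and 19.2 CPM in P16lo against 75.3, 59.6 and 44.5 CPM in P16hi libraries. All P16hi libraries were above all P16lo libraries (log2 fold change 0.98, SE 0.38, edgeR adjusted p = 0.71). Ndufa5, an accessory subunit of the arm that protrudes into the matrix, had the smallest p of all members, with 62.7, 53.5 and 77.0 CPM against 198, 139 and 91.2 CPM. Its log2 fold change was 1.15 (SE 0.37, edgeR adjusted p = 0.596), again without overlap. Ndufb4, an accessory subunit of the membrane arm, had 38.2, 42.3 and 41.5 CPM against 99.2, 64.3 and 49.4 CPM. Its log2 fold change was 0.80. Its near-identical copies Ndufb4b and Ndufb4c had 2.98 to 7.78 CPM in P16lo, and reads could be split among the 3, so these values are uncertain.

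Ndufa4, now usually counted with complex IV, was at 130, 173 and 128 CPM in P16lo against 223, 270 and 176 CPM in P16hi, without overlap. Its paralogue Ndufa4l2, which is known to be induced in hypoxia, had 9.45, 7.51 and 67.7 CPM against 16.5, 10.3 and 21.0 CPM. A single library, P16lo 3, was high for Ndufa4l2, whose log2 fold change was -0.82 with it and 0.90 without it. That library was the richest in fibroblast markers and also in hemoglobin (44.8% of its counts), and the part of either was not tested.

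In complex II, succinate dehydrogenase, which also serves the TCA cycle, both Sdha and Sdhc had P16hi libraries above all P16lo libraries. Sdha, the flavoprotein, was at 138, 130 and 116 CPM in P16lo against 306, 189 and 160 CPM in P16hi (log2 fold change 0.77, SE 0.35). Sdhc, a membrane anchor, was at 86.7, 78.3 and 60.2 against 182, 120 and 93.1 CPM (0.81, SE 0.36). The edgeR adjusted p was above the threshold for both, the smallest in complex II being 0.782.

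Complex III hands electrons to cytochrome c. Its subunit Uqcrb was at 149, 129 and 133 CPM in P16lo against 394, 282 and 190 CPM in P16hi. The groups did not overlap (log2 fold change 1.07, SE 0.36, edgeR adjusted p = 0.624). Uqcrfs1, the Rieske iron-sulfur protein, was at 161, 191 and 110 against 398, 292 and 188 CPM, where P16hi library 3 lay just under P16lo library 2. Outside the rule, cytochrome c1 (Cyc1) had a log2 fold change of 0.80 and cytochrome c (Cycs) of 1.17, with 219, 321 and 177 CPM against 737, 525 and 353 CPM for Cycs. The acyl carrier protein Ndufab1 had 0.99, and each of the 3 had the direction of most members.

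Complex V members all had log2 fold changes above 0, from 0.11 to 1.18. Atp5j, the coupling factor of the peripheral stalk, had the highest of all 79, with 249, 247 and 233 CPM in P16lo against 830, 497 and 325 CPM in P16hi (1.18, SE 0.41, edgeR adjusted p = 0.63). Atp5c1, the central stalk of the catalytic head, was at 327, 356 and 271 against 756, 584 and 379 CPM. Both had all P16hi libraries above all P16lo libraries.

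The 3 genes for the c-ring subunit, which encode the same mature protein behind different import sequences, differed among themselves. Atp5g1 was at 249, 280 and 260 CPM in PDGFRα P16lo against 786, 600 and 306 CPM in P16hi (log2 fold change 1.10, SE 0.41, edgeR adjusted p = 0.685). Atp5g2 was at 429, 455 and 302 against 546, 398 and 333 CPM (0.11, SE 0.35), and Atp5g3 had a log2 fold change of 0.57. Within a library, and so free of its scaling, Atp5g1 gave 25.6%, 25.7% and 32.5% of the summed c-subunit TPM (transcripts per 1000000, which corrects for gene length) in P16lo and 42.2%, 43.3% and 33.4% in P16hi. Atp5g2 gave 57.2%, 53.5% and 47.9% against 37.4%, 37.3% and 47.4%. Neither share overlapped between the groups, but P16lo and P16hi libraries 3 were within 1 percentage point of each other in both. In the 6 F4/80 libraries, from a separate table, Atp5g1 gave 15.4% to 21.4%.

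Complex IV, cytochrome c oxidase, held Cox8a and Cox6b2 of the 4 members whose fold was below 0. Cox8a was at 746, 805 and 619 CPM in PDGFRα P16lo against 843, 558 and 406 CPM in P16hi. Its log2 fold change was -0.26 (SE 0.37, edgeR adjusted p = 0.899). That change was 0.073 when libraries were scaled by totals alone and 0.40 on the TPM scale. Cox6a1 was at 449, 595 and 450 against 732, 461 and 357 CPM (0.05, SE 0.38), overlapping in both directions. Cox5a, which sits on the matrix side, had the highest fold of the complex, 0.90 (SE 0.44), and was at 178, 288 and 129 against 514, 349 and 244 CPM. Cox6b2, the testis form of Cox6b, was at 4.49, 7.98 and 21.4 CPM in P16lo against 0, 2.87 and 4.24 CPM in P16hi. It gave 0.599%, 0.918% and 3.99% of the summed Cox6b1 and Cox6b2 TPM in P16lo against 0%, 0.293% and 0.756% in P16hi, where the groups overlapped. The count of 0 in P16hi library 1 allows up to 0.918 CPM (3 counts, counting error only), so this difference is near the limit of the depth.

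Since a library's scaling shifts all of its genes alike, each member was also set against the median of the 79 in its own library. Cox8a lay 2.42, 2.35 and 2.26 log2 units above that median in PDGFRα P16lo and 1.46, 1.36 and 1.52 above it in P16hi, a difference of -0.90 with a within-group SD of 0.08. Cox6a1 lay 1.69, 1.91 and 1.80 above it in P16lo and 1.25, 1.08 and 1.33 in P16hi, a difference of -0.58 (SD 0.12). In both genes the 3 P16hi libraries were close together although their summed levels differed widely, and the groups were far apart.

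Relative to the median, Uqcrh, the hinge protein of complex III, was lower in P16hi than in P16lo by 0.449 (SD 0.0579). Ndufa13, an accessory subunit of complex I, was lower by 0.484 (SD 0.163), and neither overlapped. In the other direction, Ndufa5 differed by 0.50 (SD 0.29), Atp5j by 0.49 (SD 0.13), Uqcrb by 0.43 (SD 0.15) and Atp5g1 by 0.42 (SD 0.15). These are differences between the groups, not positions above or below the median. In all, 9 members were higher in P16hi and 14 lower without overlap, and 56 overlapped. Relative to the same medians, 2.84% of all genes tested were higher and 20.4% lower. Centring on the members' own median sets these shares, so nothing is read from the counts against them.

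Complex IV made up 29.0%, 29.7% and 27.9% of the summed member TPM in PDGFRα P16lo and 26.3%, 24.9% and 26.3% in P16hi. The P16hi libraries were all lower, by 3.02 percentage points with a within-group SD of 0.856, and the difference was 2.56 to 3.51 points with any one library left out. Complex III made up 9.64%, 9.28% and 9.36% in P16lo and 10.1%, 11.0% and 10.4% in P16hi, higher in every P16hi library by 1.09 points (SD 0.342). Complex I held 27.9% to 30.4% over the 6 libraries, with overlap.

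The 3 muscle isoforms left out of the rule are paralogues of the complex IV members Cox6a1, Cox8a and Cox7a2. Cox6a2 made up 3.54%, 2.21% and 3.69% of the summed Cox6a1 and Cox6a2 TPM in PDGFRα P16lo and 44.6%, 42.3% and 29.1% in P16hi. Cox8b made up 1.39%, 0.859% and 1.41% of Cox8a and Cox8b against 13.6%, 21.0% and 14.0%, and Cox7a1 3.92%, 3.30% and 5.01% of Cox7a1 and Cox7a2 against 23.3%, 28.0% and 20.0%. Their log2 fold changes were 4.50, 3.73 and 3.66, each with an edgeR adjusted p of 0.0838.

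With these 3 genes counted in, complex IV made up 29.2%, 29.8% and 28.1% of the summed TPM in P16lo and 28.9%, 27.6% and 28.1% in P16hi. The groups then overlapped, and the difference was -0.864 points in place of -3.02. Of the 3 ubiquitous forms, Cox8a and Cox6a1 lay above the members' median in every library. Their distance above it was smaller in P16hi than in P16lo, by 0.90 and 0.58 log2 units. On the same measure Cox7a2 differed by 0.0852, with overlap, and its log2 fold change was 0.70. The summed muscle forms were highest in P16hi library 1 and lowest of the group in library 3, as were the cardiomyocyte markers, and the part of cardiomyocyte RNA in these shares was not tested.

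**Figure D3:**
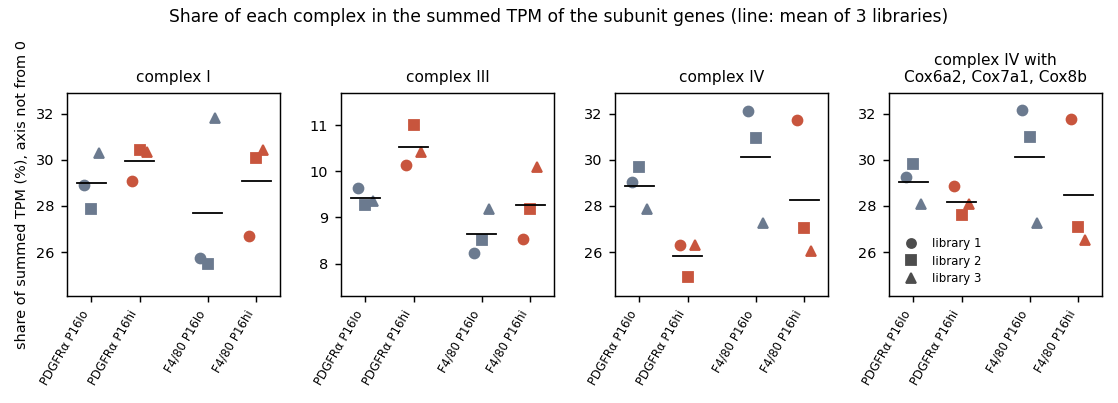
Share of complexes I, III and IV in the summed TPM of the 79 subunit genes per library, and of complex IV once Cox6a2, Cox7a1 and Cox8b are counted (axes do not start at 0; lines are means of 3 libraries). In PDGFRα cells complex IV held 27.9% to 29.7% in P16lo and 24.9% to 26.3% in P16hi without overlap, and the groups overlap in the last panel.

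**Figure D4:**
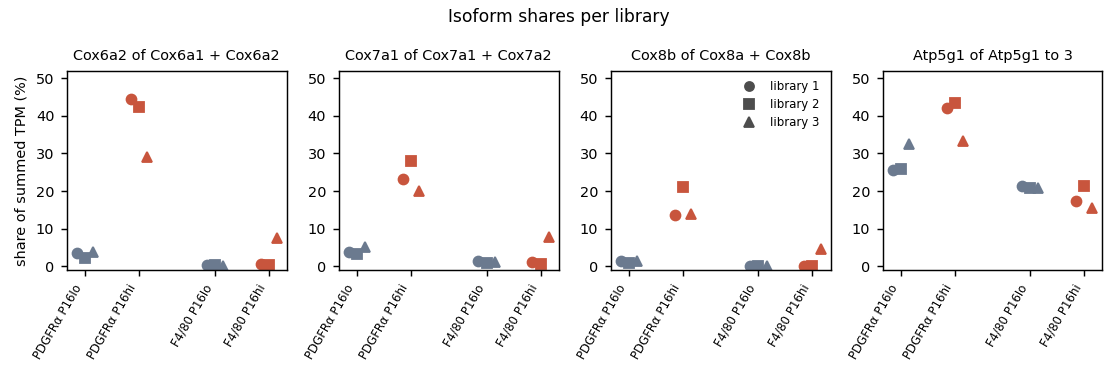
Share of each isoform in the summed TPM of its isoform group per library, as labelled above each panel. The muscle forms Cox6a2, Cox7a1 and Cox8b are high in the 3 PDGFRα P16hi libraries and in F4/80 P16hi library 3, and Atp5g1 of the c-subunit genes is above 33% in the PDGFRα P16hi libraries.

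Promoter windows of the members were searched for the letters of 3 motifs. RefSeq windows of 300 bases (250 before and 50 after the start, GRCm38.p6) were matched for 66 of the 79 members, 5 of them with more than 1 window. On either strand, GCGCATGC, the core of the NRF-1 site, was in windows of 10 members (15.2%) and of 3.05% of all 27025 genes with a window. CCGGAAG, an ETS core that GABP binds, was in 17 (25.8%) against 9.93%, and AAGATGGC, a core of the YY1 site, in 10 (15.2%) against 3.19%. NRF-1 or ETS letters or both were in 22 (33.3%) against 12.4%. No motif contains another, but the ETS and YY1 letters can overlap by AAG, which they did in 0 members. The windows below belong to some of the genes set apart above, with letters of the motifs in capitals. Cox6a1 (chr5:115348909-115349208, minus strand) holds 1 NRF-1 and 1 ETS match, and Cox8a (chr19:7217567-7217866, minus strand) holds 2 ETS matches. Atp5g2 (chr15:102670998-102671297, minus strand) holds 1 NRF-1 match, and Atp5g1 (chr11:96075582-96075881, minus strand) has none of the 3 within its window. Other genes set apart above were mixed. Of those higher in PDGFRα P16hi than in P16lo relative to the members' median, Atp5j holds ETS and YY1 letters and Ndufa5 none. Of those lower in P16hi on that measure, Uqcrh holds ETS letters and Ndufa13 none. The windows printed thus do not stand for a split by pattern. A match is a run of letters, not a shown site.
Cox6a1: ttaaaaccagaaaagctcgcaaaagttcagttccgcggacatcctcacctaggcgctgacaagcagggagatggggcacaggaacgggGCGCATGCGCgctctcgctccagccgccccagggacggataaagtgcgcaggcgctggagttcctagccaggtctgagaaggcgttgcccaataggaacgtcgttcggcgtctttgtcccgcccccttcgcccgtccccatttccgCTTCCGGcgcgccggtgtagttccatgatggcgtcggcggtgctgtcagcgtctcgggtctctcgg
Cox8a: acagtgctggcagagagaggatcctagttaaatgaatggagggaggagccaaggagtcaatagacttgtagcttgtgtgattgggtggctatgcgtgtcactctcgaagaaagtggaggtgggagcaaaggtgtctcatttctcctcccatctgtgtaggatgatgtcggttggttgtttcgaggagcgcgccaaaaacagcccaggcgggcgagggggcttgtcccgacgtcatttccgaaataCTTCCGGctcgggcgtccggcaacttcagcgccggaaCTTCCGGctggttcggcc
Atp5g2: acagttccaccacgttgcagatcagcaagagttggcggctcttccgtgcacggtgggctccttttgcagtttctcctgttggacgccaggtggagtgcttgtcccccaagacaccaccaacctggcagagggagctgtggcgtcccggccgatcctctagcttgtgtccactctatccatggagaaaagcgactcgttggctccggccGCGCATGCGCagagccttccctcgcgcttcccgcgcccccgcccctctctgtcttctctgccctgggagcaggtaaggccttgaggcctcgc
Atp5g1: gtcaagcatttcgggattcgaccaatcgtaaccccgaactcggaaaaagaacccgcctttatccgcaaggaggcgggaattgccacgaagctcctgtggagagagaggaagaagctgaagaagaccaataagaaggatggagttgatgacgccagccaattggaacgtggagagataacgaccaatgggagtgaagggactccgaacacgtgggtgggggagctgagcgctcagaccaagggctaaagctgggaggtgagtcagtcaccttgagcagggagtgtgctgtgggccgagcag

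In F4/80-high cells the 79 subunit genes were centred near the other genes. Their median log2 fold change was 0.09, beside -0.00013 for all 12490 genes tested, and 52 of 79 were above 0, against 50% of all genes. The edgeR test called 0 of 79 (0% of all genes), with a smallest adjusted p of 0.999, and 0 members had an unadjusted p under 0.05, where 1.94% of all genes were higher and 0.304% lower. DESeq2 called 2 genes higher (0.016%) and 1 lower (0.00801%) and limma 0, and no member was among them. The highest and lowest P16hi sums enclosed all P16lo sums, at 12796, 10109 and 12649 CPM in P16lo against 9750, 11727 and 14654 CPM in P16hi. The means were 11851 ± 1511 and 12044 ± 2467 CPM (SD, n = 3).

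F4/80 P16hi library 3 was highest for the subunits, and it was the one with endothelial markers. It also held 1081 CPM of cardiomyocyte markers, where the other 5 held 3.78 to 36.1 CPM, and its Cox6a2 share was 7.46%, against at most 0.725% in the other 5. Without it the member median was -0.12 and 20 of 79 members were above 0. Without both libraries 3 the median was -0.10. Without that library the direction of the median was thus the opposite.

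The members' share of the unscaled counts also followed the column block of the table, whose meaning the labels do not give. In the block of P16lo library 3 and P16hi libraries 2 and 3, members took 1.45%, 1.25% and 1.67% of the counts, and in the block of P16lo libraries 1 and 2 and P16hi library 1 they took 1.15%, 0.953% and 0.819%. In summed CPM, which is scaled, the blocks overlapped. P16lo library 1 of the second block, at 12796 CPM, lay above P16lo library 3 and P16hi library 2 of the first, at 12649 and 11727 CPM. With the block as a covariate the member median was -0.06. Within the first block the P16lo sum of 12649 CPM lay between the P16hi sums, and within the other the P16hi sum of 9750 CPM lay below both P16lo sums.

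Among single members of the F4/80 comparison, Sdhd, a membrane anchor of complex II, was the only 1 of 79 with every P16hi library above every P16lo library, where 3.37% of all genes were, and 0 members had the reverse, against 3.48%. Scaled by library totals, with or without hemoglobin genes, the count was 0 (3.59% of all genes). Sdhd was at 108, 99.3 and 83.9 CPM in P16lo against 111, 114 and 131 CPM in P16hi. Its log2 fold change was 0.29 (edgeR adjusted p = 0.999). Ndufa8, a complex I accessory subunit, had the smallest p, with 68.5, 50.5 and 62.1 CPM against 56.6, 68.7 and 146 CPM. Only P16hi library 3 was far from the others. Atp5j showed the same, with 143 to 191 CPM in 5 libraries and 481 CPM in P16hi library 3, and its log2 fold change of 0.68 became -0.13 without it. Ndufs1 was low in that library, at 11.4 CPM against 32.9 to 57.9 CPM in the other 5.

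The shares of the complexes varied more between F4/80 libraries than between their groups. Complex IV made up 32.1%, 31.0% and 27.2% of the summed member TPM in P16lo and 31.7%, 27.1% and 26.0% in P16hi, and complex I 25.8%, 25.5% and 31.8% against 26.7%, 30.1% and 30.4%. The low complex IV and high complex I shares belonged to the 3 libraries of the block with P16lo library 3. The difference for complex IV was -1.83 points with a within-group SD of 2.80. Relative to the members' median, 4 members were higher in P16hi than in P16lo (2.74% of all genes) and 1 lower (2.34%) without overlap.

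Whether the P16hi difference was larger in PDGFRα than in F4/80 cells was tested as an interaction over all 12 libraries. The member median of that difference was 0.57, beside -0.20 for all 14073 genes tested, and 73 of 79 were above 0, against 40.6% of all genes. The edgeR test called 0 of 79 members and 0% of all genes, with all member adjusted p equal to 1. DESeq2 called 1 gene higher (0.00711%) and 7 lower (0.0497%), and limma 0, with no member among them. At an unadjusted p under 0.05 there were 2 members, Atp5g1 (1.47, SE 0.50) and Sdha (1.07, SE 0.48), where 0.803% of all genes were higher, and 0 lower, where 1.32% were.

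On the TPM scale Cox8a and Cox6b1 were the highest members in PDGFRα P16lo, at means of 1621 and 1620, and in F4/80 P16lo, at 1951 and 1865, differences smaller than the spread between libraries. In PDGFRα P16hi the order was Cox6b1 at 3115, then Atp5e at 2087, Atp5l at 2063 and Cox8a at 1925. The lowest members were Ndufs1, Ndufb4b, Ndufb4c, Ndufa4l2 and Cox6b2 in all 4 groups, with means of 3.12 to 50.2. TPM share a fixed total with the hemoglobin transcripts, and the 79 members summed to 34619, 26391 and 11790 TPM in PDGFRα P16lo libraries 1 to 3 as the hemoglobin share went from low to high.

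Genes around the respiratory chain were read from lists. In PDGFRα-high cells all 14 TCA cycle enzymes had log2 fold changes above 0, against 40.4% of all genes tested, with a median of 0.76. For 7 of the 14 every P16hi library lay above every P16lo library, against 7.92% of all genes. Idh2, the mitochondrial NADP-dependent isocitrate dehydrogenase, was at 83.8, 74.0 and 79.5 CPM in P16lo against 434, 303 and 147 CPM in P16hi (1.90, SE 0.44, edgeR adjusted p = 0.343). Slc25a4, the ADP/ATP carrier of heart and muscle, was at 193, 185 and 363 against 1762, 1081 and 548 CPM (2.19, edgeR adjusted p = 0.376). No gene of either list passed.

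The 49 tested assembly factors, proteins that build the complexes without being part of them, had a median of 0.06 in PDGFRα-high cells, beside -0.17 for all genes tested, with 28 above 0 and 21 below. Those of complex IV had a median of -0.06 over 20 genes, those of complex I 0.38 over 15 and those of complex V 0.58 over 4, all 4 above 0. The 12 regulators of respiratory gene transcription had a median of -0.27, with 4 above 0. Ppargc1a, a coactivator that drives mitochondrial biogenesis, was at 0.826, 0 and 0.438 CPM in P16lo against 11.9, 6.42 and 0.771 CPM in P16hi. It was the 1 regulator higher at an unadjusted p under 0.05 (edgeR adjusted p = 0.753), P16hi libraries 1 and 2 were high, and library 3 lay within the P16lo range. Tfam, mitochondrial transcription factor A, was at 19.4, 36.1 and 20.6 CPM in P16lo against 0, 13.0 and 14.8 CPM in P16hi, where the count of 0 in library 1 allows up to 0.918 CPM. Tfam and Tfb1m, a mitochondrial rRNA methyltransferase, were the 2 regulators with every P16hi library below every P16lo library, against 6.92% of all genes, and neither passed edgeR. Of the genes for the factors whose motifs were searched, Nrf1, which encodes NRF-1, was at 30.8, 40.6 and 24.1 CPM in P16lo against 18.1, 28.7 and 27.5 CPM in P16hi, and Gabpa, which encodes the DNA-binding subunit of GABP, at 23.4, 22.3 and 18.3 against 7.04, 19.8 and 24.6 CPM. Both overlapped between the groups. Cox4i1, a core nuclear subunit of complex IV outside the rule, was at 908, 955 and 699 against 1338, 927 and 606 CPM (0.16), with overlap.

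In F4/80-high cells the same lists had medians of -0.07 for the TCA cycle, 0.03 for the assembly factors and -0.20 for the regulators. None of their genes passed edgeR, at a smallest adjusted p of 0.999. Across replicates the subunit genes were less spread than genes in general: the median within-group SD of log2 CPM was 0.23, 0.54, 0.31 and 0.42 in PDGFRα P16lo, PDGFRα P16hi, F4/80 P16lo and F4/80 P16hi for the 79 members. For all genes tested it was 0.49, 0.58, 0.45 and 0.58 in the same order. For tested genes at or above the mean level of the lowest member, the members included, it was 0.43, 0.50, 0.44 and 0.55. PDGFRα P16hi was the only group in which the members' median was above that of this last set, which is not matched to the members' levels.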

How the data were processed

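The authors deposited estimated counts, FPKM and TPM per gene and library, per the file headers, and HISAT with the builds GRCm38 and mm10 is named in the submitters' processing notes; no source used here names the counting tool or strand use, so overlapping genes and near-identical copies are uncertain. Each population came as 1 table of 2 column blocks, joined here by gene identifier with unlisted genes at 0. The 12 normalised count columns were not used. The deposited TPM of F4/80 P16hi library 3 did not follow from its counts and lengths (median absolute log2 deviation 0.437, against 0.002 to 0.0144 in the other 11), so TPM in the text are the authors' FPKM rescaled to sum to 1000000.

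The estimated counts, rounded, went into edgeR 4.0.16 (R 4.3.3; filterByExpr with a minimum of 10, TMM, robust quasi-likelihood F-test, Benjamini-Hochberg over all genes tested, threshold 0.05), within each population and as an interaction. CPM are per 1000000 of the TMM-scaled library. DESeq2 1.42.0 and limma 3.58.1 (pseudocount 1) were alternatives. The fit was checked on simulated counts that had the same dispersion for all genes and no outlying libraries. That check covers the code and not how the fit does on libraries as uneven as these. Members and lists were chosen with earlier results of these data known, so no count over them is independent evidence. Genes were named by smallest p per complex or list, by having a paralogue, or by highest level; Nrf1, Gabpa, Tfb1m, Ndufa13, Ndufb4b, Ndufb4c, Myh6 and Tnnt2 were chosen after their values were seen.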

Additional observations from a re-analysis of the deposited data

How the results depend on the processing

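No member passed the threshold in any comparison under any of the scalings, filters, tools, blocks or left-out libraries tried. In PDGFRα cells the member median was 1.25 with limma on log2 TPM at either pseudocount (1.25 and 1.25) and with TPM rescaled from FPKM, and for the difference between populations it was 1.27, 1.27 and 1.13. Scaling by library totals moved the all-gene median to 0.24, the members' to 0.96 and the difference of summed levels to 0.90 (1.16 and 1.16 on the TPM scale). Members without overlap were then 55 (17.2% of all genes), or 33 with hemoglobin left out (9.62%), and 0 and 0 in F4/80 cells (3.59%). Complex V differed by 2.02 points as a share of counts.

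Some genes changed sign: Cox8a (0.073 by totals, and 0.40, 0.40 and 0.40 with limma), Ndufa4l2 (0.54, 0.58 and 0.54 with limma), and in F4/80 cells Ndufs1 (0.24 without both libraries 3, and 0.033 and 0.037 with limma on deposited TPM, which hold the faulty column of P16hi library 3; -0.47 with TPM rescaled from FPKM), Atp5j (-0.21) and Uqcrb (-0.14), both without both libraries 3. The cause of the other changes was not tested. Same-numbered libraries deviated together with correlations of 0.10, -0.01 and 0.31 in PDGFRα and 0.47, -0.30 and 0.14 in F4/80 cells, so the numbers were not taken to pair samples. The replicate block gave medians of 0.53, 0.06 and 0.53 in the 3 comparisons, 0 members called, and -0.0029 for Cox6a1.

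With each library left out in turn, the member median ran from 0.32 to 0.83 in PDGFRα, -0.12 to 0.21 in F4/80 and 0.28 to 0.84 for the difference. The summed levels differed by 0.21 to 0.76 and by -0.13 to 0.14. Members without overlap in PDGFRα numbered from 18 without P16hi library 1 (11.6% of all genes) to 67 without P16hi library 3 (12.4%). The 36 without P16lo library 2 (10.6%) are included. In F4/80 they numbered 4 without P16hi library 1 (7.91% of all genes) and otherwise 1 (5.26% to 12.4%). Complex I to V shares differed in PDGFRα by 0.36 to 1.57, 0.02 to 0.20, 0.85 to 1.28, -3.51 to -2.56 and 0.41 to 1.31 points. Atp5g2 ran from -0.13 to 0.25, Cox4i1 from -0.18 to 0.40, Cox6a1 from -0.30 to 0.25 and Ndufa4l2 from -1.27 to 0.90 in PDGFRα cells, and Atp5j from -0.13 to 0.97 and Ndufs1 from -0.74 to 0.019 in F4/80 cells. With 3 libraries a group and totals down to 3.16 M, small differences of single subunits were not detectable.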
